A study of Homo sapiens with 43 samples.

Results

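The washout change of dexamethasone at 0.01 µM asks how far the expression changes that the hormone had made in HMC3 cells by day 3 had receded by day 6, after 3 days without it. For each gene it is the difference between hormone and vehicle flasks on day 6 minus the same difference on day 3, so that a gene that was induced and then returned has a negative washout change and a gene that was repressed and then recovered has a positive one. The members are the libraries that enter this difference, chosen by their treatment labels: 22 of the 43 libraries of the series, namely 3 of dexamethasone 0.01 µM on day 3, 3 of dexamethasone 0.01 µM on day 6, 12 of ethanol vehicle on day 3 and 4 of ethanol vehicle on day 6. All flasks held HMC3, an immortalised human line sold as microglia, seeded at the same passage and exposed to medium with dexamethasone, hydrocortisone, ethanol alone or nothing added. The vehicle groups are 4, the ethanol of each dose of each hormone, with 3 libraries a group on day 3 and 1 a group on day 6. At the end of the treatment each flask was harvested, a fixed number of its living cells was replated in plain medium without hormone or ethanol, and RNA was taken on both days. The day 6 cells therefore descend from the day 3 flasks, and nothing in the labels says which day 3 library shares its flask with which day 6 library.

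Dexamethasone is a synthetic glucocorticoid and hydrocortisone is cortisol, the natural human hormone. Both bind the glucocorticoid receptor, encoded by NR3C1, which waits in the cytoplasm with heat shock chaperones, moves into the nucleus once bound, raises some genes from its own DNA elements and lowers others, many of them by acting on the factors AP-1 and NF-kB. Its induced genes include brakes on the response, such as the chaperone FKBP5 that lowers hormone binding, the leucine zipper protein GILZ (TSC22D3) and the NF-kB inhibitor NFKBIA, and in microglia glucocorticoids are known for holding down inflammatory genes.

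Depth in the 22 libraries ran from 9907907 to 24426643 counts, of which 10.6 to 94.9% lay in ribosomal RNA genes. In 4 of the 22 this share was over 75%: dexamethasone day 3 replicate 3, 1 vehicle library of each of 2 day 3 groups, and the day 6 vehicle of dexamethasone 1 µM. Without ribosomal RNA the depth was 1083399 to 17542039 counts. Of 24 markers of microglia and macrophages 8 had a value in the count table used here, and 3 were above 1, among them MERTK (median CPM 9.25, counts scaled per library without ribosomal RNA) and OLFML3 (2.14), while CSF1R, TREM2, CD68, CD14 and CD33 were below. Of 17 markers of fibroblasts and pericytes 15 had a value and 11 were above 1, with COL1A1 at 1620 and VIM at 1660. The label "microglial cell" thus found little backing in these markers. The summed level of the microglia list was 78.5 to 98.6 in the hormone libraries and 97.9 to 121 in the vehicles on day 3, and 110 to 118 against 116 to 139 on day 6. The summed fibroblast list was 5100 to 6323 against 4383 to 5437 on day 3 and 4815 to 5563 against 4301 to 5010 on day 6. Their part in the results was not tested. All flasks held bulk cells, in which fewer cells of a type and less RNA per cell cannot be told apart.

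After washout fewer genes differed from vehicle than under the hormone. On day 3 the hormone libraries differed from the vehicles at 3633 of 16816 genes tested (21.6%), 1716 of them higher (10.2%) and 1917 lower (11.4%), and on day 6 at 14 (0.0833%), 8 higher (0.0476%) and 6 lower (0.0357%). The day 6 count ran from 0 to 23 as single libraries were left out. Of the 247 genes that were called and at least 2-fold higher on day 3, 40 kept more than 0.5 of that log2 effect on day 6. Of the 240 at least 2-fold lower, 7 did. Over all genes tested the same count was 5174 of 16816. The washout change passed at 80 of the 247 and at 160 of the 240. The 95% interval of the day 6 effect lay within 2-fold of no change for 98 of the 247 and 151 of the 240. It did so for 12983 of all 16816 genes tested, a larger share than in either set. The day 6 values come from other libraries than those that chose the genes. The day 3 effect both chose the genes and is the divisor, so the counts of 40 and 7 lean low. It is also subtracted in the washout change, so the counts of 80 and 160 lean high. The washout change passed the test at 1101 genes (6.55%), of which 674 rose (4.01%) and 427 fell (2.54%); 163 of the rises and 73 of the falls were at least 2-fold. In 668 of the 674 and in 417 of the 427, the 3 day 6 hormone libraries did not overlap the 3 of day 3 once the vehicle mean of each day had been subtracted, as was so for 26.6% of all genes tested. The test was edgeR's quasi-likelihood test with Benjamini-Hochberg adjustment over all genes and a threshold of 0.05. The median half-width of the 95% interval of a washout change was 0.298 on the log2 scale, over the 11670 genes whose mean log2 CPM reached 1 (CPM, counts scaled to a common library size). Without the libraries over 75% ribosomal the count was 855, of which 657 were among the 1101, and against the vehicle of its own dose alone it was 647.

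Taken without any vehicle, the day 6 to day 3 difference of the hormone flasks passed at 2572 genes (15.3%), 1416 higher (8.42%) and 1156 lower (6.87%). In the vehicle flasks 85 genes (0.505%) differed between the days, 37 higher (0.220%) and 48 lower (0.285%) on day 6. The count was 17 without the day 6 vehicle of dexamethasone 1 µM, 56 without that of hydrocortisone 0.01 µM and 128 without dexamethasone day 3 replicate 3. That last library is not a vehicle and enters only through the gene filter, the scaling and the spread, which all libraries share. The comparisons share libraries, so their lists are not independent of each other.

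The genes that had been induced and came back were led by ABCA8, a lipid transporter of the ABC family (ENSG00000141338, chromosome 17, 68867292 to 68955392, minus strand, GRCh38). Its level on day 3 was 85.3, 85.5 and 63.7 CPM with hormone against 10.1 to 13.8 (median 11.8) in the 12 vehicle libraries. On day 6 it was 14.1, 13.2 and 12.8 CPM with hormone against 13.4, 13.6, 12.5 and 13.9 in the 4 vehicles. The day 3 groups lay far apart and the day 6 groups overlapped. The washout change of ABCA8 was −2.73 on the log2 scale (SE 0.14, adjusted p = 4.93e-18), a 6.61-fold fall, and its day 6 effect was 0.00 (95% interval −0.22 to 0.22).

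TSC22D3, which encodes GILZ (ENSG00000157514, chromosome X, 107713221 to 107777342, minus strand), stood on day 3 at 29.2, 33.6 and 35.8 CPM with hormone and at 2.63 to 4.44 (median 3.86) with vehicle. On day 6 it was 3.52, 4.40 and 3.30 CPM with hormone and 2.99, 3.07, 2.54 and 2.55 with vehicle, so that all 3 hormone libraries still stood slightly above the 4 vehicles. The fall was 6.59-fold (log2 −2.72, SE 0.30, adjusted p = 2.3e-07), and the remaining difference did not pass (log2 0.43, 95% interval −0.04 to 0.89). PER1, a clock repressor with receptor elements of its own, went from 23.8, 27.1 and 42.7 CPM to 6.24, 7.79 and 6.85 with hormone, while the vehicles were at 4.90 to 9.14 (median 6.38) on day 3 and at 7.26, 6.96, 3.83 and 4.53 on day 6. Its groups overlapped on day 6 and not on day 3, and its washout change was −1.80 (SE 0.26, adjusted p = 1.46e-05). FKBP5 went from 78.5, 75.8 and 80.4 CPM to 29.9, 36.5 and 41.8, against 27.6 to 40.4 (median 33.2) in the day 3 vehicles and 27.5, 30.4, 28.5 and 32.9 in those of day 6. This was a fall of 1.92-fold (log2 −0.94, SE 0.16, adjusted p = 6.81e-05). The transcription factor KLF9 fell from 10.5, 9.79 and 9.32 CPM to 2.99, 3.32 and 2.54, within the 2.14 to 3.88 of the day 6 vehicles (log2 −1.54, SE 0.20, adjusted p = 5.02e-07).

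Of the 39 genes tested from a list of known receptor targets, 11 fell and 1 rose (STOM), with a median washout change of −0.30 against 0.019 over all genes. On day 3, 19 of the 39 had been higher and 2 lower, and on day 6 CRISPLD2 and TXNIP were higher and none was lower. Besides the genes above, the falls included the insulin receptor substrate IRS2 (log2 −1.21, SE 0.15, adjusted p = 7.42e-08), NFKBIA (−0.75), DDIT4 (−0.68), an inhibitor of the growth kinase mTOR, and the metal-binding protein MT2A (−0.57). DUSP1, a phosphatase that quenches MAP kinases and a textbook receptor target, was at 173, 173 and 235 CPM on day 3 against 71.1 to 209 (median 130) in the vehicles, and its washout change of −0.61 did not pass (SE 0.41, adjusted p = 0.45). Further down the list of largest falls stood genes outside it. NID2, the basement membrane protein nidogen-2, dropped from 28.1, 28.6 and 24.5 CPM to 5.12, 4.97 and 3.30, against 2.89, 4.85, 2.81 and 2.70 in the day 6 vehicles (log2 −2.64, SE 0.17, adjusted p = 1.17e-15). The atypical cadherin FAT4 (−1.75), the prostaglandin E2 receptor PTGER4 (−1.81), the transporter SLC16A12 (−1.87), the long non-coding RNA CERNA2 (−2.38) and the glucuronosyltransferase UGT2B7 (−1.64), a member of a family of similar genes among which reads may be split, all fell with adjusted p of 5.83e-05 or less.

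**Figure D1:**
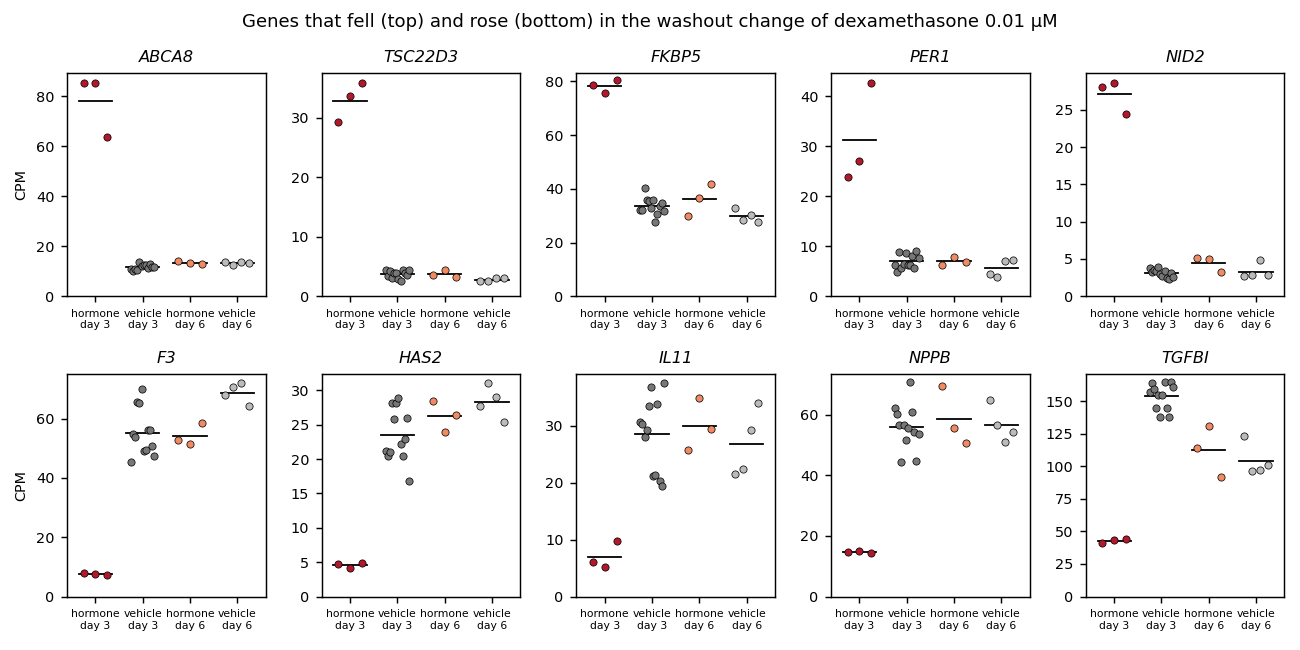
Level in CPM (vertical axis, from 0) in each library of dexamethasone 0.01 µM (hormone) and of the vehicles on days 3 and 6, for 5 genes whose washout change was negative (top) and 5 for which it was positive (bottom); each point is 1 library and each bar the mean of its group. The day 3 hormone points stand apart from all others, while those of day 6 lie near the vehicles, as for ABCA8 at 12.8 to 14.1 CPM against 12.5 to 13.9.

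The receptor itself moved the other way. NR3C1 was at 63.4, 61.3 and 41.7 CPM on day 3 with hormone, below all 12 vehicles at 71.0 to 85.1 (median 78.5), and at 69.7, 76.5 and 66.1 CPM on day 6, against vehicles at 66.9, 70.5, 78.6 and 80.5. Its rise was small (log2 0.43, SE 0.11, adjusted p = 0.0087), and it did not pass without the libraries over 75% ribosomal (0.26, adjusted p = 0.113) or without dexamethasone day 3 replicate 3 alone (0.26, adjusted p = 0.0828). Among 18 genes of the receptor complex and of steroid handling 6 rose and 3 fell. The rises were the receptor and its chaperones HSP90AB1 (0.33), HSPA8 (0.47), FKBP4 (0.41), STIP1 (0.25) and PTGES3 (0.31), while FKBP5, the efflux pump ABCB1 (−0.99) and the coactivator NCOA3 (−0.44) fell. Without the libraries over 75% ribosomal 1 of the list rose and 3 fell.

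Among the genes that had been repressed and rose in the washout change were F3, tissue factor, the cell surface protein that starts blood coagulation (ENSG00000117525, chromosome 1, 94529225 to 94541800, minus strand), IL11, a cytokine of the IL-6 family (ENSG00000095752, chromosome 19, 55364389 to 55370463, minus strand), and HAS2, which makes hyaluronan. Among the named genes searched, F3, IL11, PLAUR, FST and CPA4, which rose, hold the element of AP-1 in their promoter window. So do MT2A and GINS1, which fell. AP-1 is a factor family through which the receptor is known to repress. The sequences below are the 250 bases before the transcription start of 3 such genes and of EVA1A, a membrane protein linked to autophagy that holds a receptor-like element, as RefSeq gives them on GRCh38.p14. They read 5′ to 3′ on the gene's strand, with matches to TGANTCA (AP-1) or to a loose form of the receptor's element (GNACA, any 3 bases, then TGTNC), searched on both strands, in capitals. These 4 genes were chosen after their values were seen. F3 lies at chr1:94541760-94542009, IL11 at chr19:55370464-55370713, PLAUR at chr19:43670170-43670419 and EVA1A at chr2:75569720-75569969, all on the minus strand.
F3: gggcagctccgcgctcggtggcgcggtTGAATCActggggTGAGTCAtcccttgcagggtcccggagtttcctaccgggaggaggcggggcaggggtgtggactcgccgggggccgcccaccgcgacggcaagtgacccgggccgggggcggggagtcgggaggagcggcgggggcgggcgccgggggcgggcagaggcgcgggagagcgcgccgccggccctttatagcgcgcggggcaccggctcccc
IL11: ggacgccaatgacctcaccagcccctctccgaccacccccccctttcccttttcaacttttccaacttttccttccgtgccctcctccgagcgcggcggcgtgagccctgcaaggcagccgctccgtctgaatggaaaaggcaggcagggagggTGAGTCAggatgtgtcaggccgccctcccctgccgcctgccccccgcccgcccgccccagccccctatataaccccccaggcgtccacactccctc
PLAUR: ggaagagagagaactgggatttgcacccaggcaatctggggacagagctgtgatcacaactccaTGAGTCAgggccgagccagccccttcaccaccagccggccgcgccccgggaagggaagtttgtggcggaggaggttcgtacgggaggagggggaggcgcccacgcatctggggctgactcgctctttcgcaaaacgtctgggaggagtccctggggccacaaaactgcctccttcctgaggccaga
EVA1A: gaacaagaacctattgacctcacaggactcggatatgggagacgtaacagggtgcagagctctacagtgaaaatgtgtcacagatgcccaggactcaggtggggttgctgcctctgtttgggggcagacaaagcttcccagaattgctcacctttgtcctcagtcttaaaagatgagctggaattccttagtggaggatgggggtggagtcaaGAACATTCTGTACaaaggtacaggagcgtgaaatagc

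F3 held 2 matches to the AP-1 element, at −223 to −217 and −210 to −204 from the start. IL11 held 1 at −96 to −90 and PLAUR 1 at −186 to −180. EVA1A held a match to the loose receptor element at −37 to −25. Of the 74 named genes with an entry, those on chromosome 8 were left out of this gene-by-gene search. Among the named genes searched, the only other match to the loose element was in TXNIP, and none held both motifs. Over windows of 300 bases, with 50 after the start, the AP-1 element was present in 40 of the 465 genes that rose and have an entry (8.60%), 14 of the 330 that fell (4.24%), 488 of all 10990 tested genes with one (4.44%) and 2120 of all 27305 entries (7.76%). The loose receptor element was present in 1 of 465 (0.215%), 2 of 330 (0.606%), 23 of 10990 (0.209%) and 106 of 27305 (0.388%). A match describes letters in a window only.

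F3 was at 8.09, 7.50 and 7.36 CPM on day 3 with hormone, against 45.4 to 70.1 (median 54.4) in the vehicles. On day 6 it was at 52.9, 51.6 and 58.4 CPM, against 64.4, 72.0, 70.8 and 68.1. The hormone libraries had thus come back to the level of the day 3 vehicles and stood below the 4 of day 6. Its washout change was a 5.67-fold rise (log2 2.50, SE 0.19, adjusted p = 2.83e-11), and its day 6 effect did not pass (−0.34, 95% interval −0.62 to −0.06, adjusted p = 0.556). IL11 went from 6.00, 5.15 and 9.81 CPM to 25.7, 35 and 29.4, against vehicles at 19.5 to 37.6 (median 29.9) on day 3 and 34.1, 29.3, 22.5 and 21.5 on day 6. It rose 4.70-fold (log2 2.23, SE 0.29, adjusted p = 4.49e-06).

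Of 15 genes of coagulation and the plasminogen system 6 rose, where 2 had been higher and 8 lower on day 3. PLAUR, the receptor of urokinase, rose from 7.05, 7.34 and 8.83 CPM to 21, 24.1 and 21.7, against day 6 vehicles at 21.2 to 22.3 (log2 1.41, SE 0.15, adjusted p = 4.05e-09). The protease inhibitor SERPINE2 rose by as much (1.41, adjusted p = 1.76e-10), and so did the thrombin receptor F2RL2 (1.39). The coagulation inhibitor TFPI2 rose by 0.76 and the protein C receptor PROCR by 0.46.

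Among signalling genes, NPPB, the precursor of a natriuretic peptide, rose from 14.6, 14.9 and 14.2 CPM to 69.3, 55.5 and 50.5, against day 6 vehicles at 54.1, 50.8, 56.4 and 64.7 (log2 1.99, SE 0.16, adjusted p = 1.99e-11). RGS4, which shortens G protein signals, rose from 0.873, 0.781 and 0 CPM to 4.14, 3.32 and 4.06 (log2 2.39, SE 0.49, adjusted p = 0.0017), and with it 2 of the other 17 tested genes of MAP kinase feedback, DUSP4 (1.60) and DUSP14 (0.62), while none of the 18 fell. FOSL1, a subunit of AP-1, rose from 21, 18.6 and 23.5 CPM to 43.6, 55.4 and 47.7, against 46.1, 45.9, 41.6 and 37.8 in the day 6 vehicles (log2 1.46, SE 0.13, adjusted p = 2.9e-11). It was 1 of 2 of 27 immediate early genes that rose, with MAFF (0.75), and none fell, a share of 7.41% near the 6.55% of all genes. EVA1A went from 3.14, 3.28 and 1.96 CPM to 11.2, 11.5 and 13.6, against day 6 vehicles at 8.74 to 13.4 (log2 2.16, SE 0.19, adjusted p = 2.66e-11). KRTAP2-3 had the largest rise among genes that reached a mean log2 CPM of 1 and whose libraries did not overlap (log2 3.09, SE 0.34, adjusted p = 2.3e-07), from 1.98, 1.2 and 1.47 CPM to 9.91, 13.4 and 12.7, but it belongs to a family of near-identical keratin-associated genes. The U3 small nucleolar RNA copies SNORD3A and SNORD3C also rose (2.16 and 2.06), with wide spread among vehicles, and lost the call in 12 and 13 of the 20 alternatives run.

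**Figure D2:**
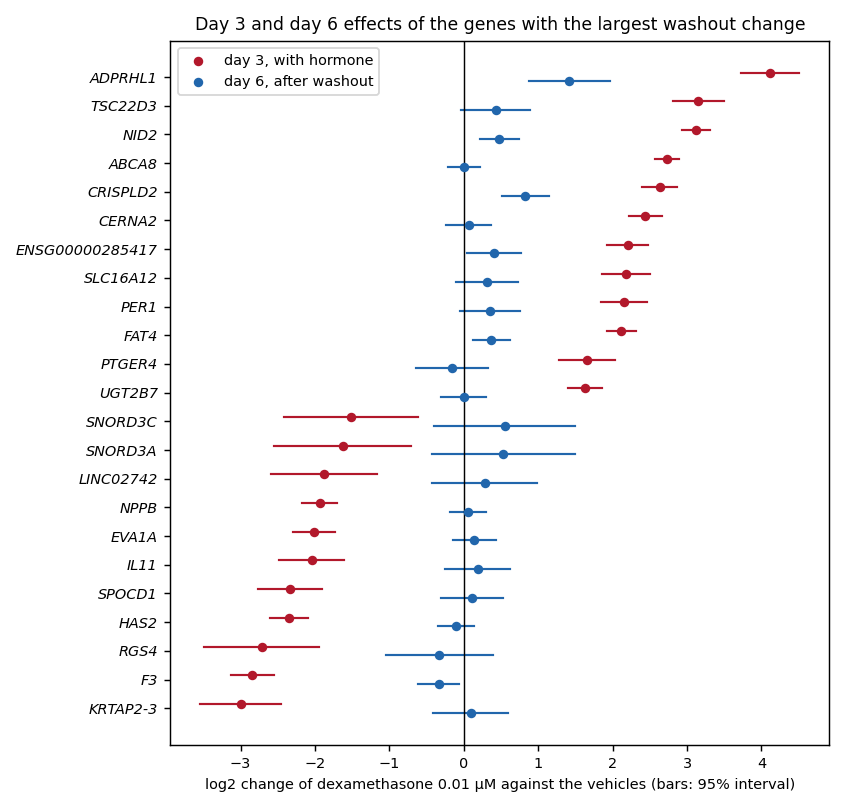
Log2 change of dexamethasone 0.01 µM against the vehicles (horizontal axis) on day 3 in red and day 6 in blue, with 95% intervals from the fit, for 23 genes with the largest washout change in either direction. The day 3 points run from −3.00 for KRTAP2-3 to 4.12 for ADPRHL1, and the day 6 points run from −0.34 for F3 to 0.55 for SNORD3C but for ADPRHL1 at 1.42 and CRISPLD2 at 0.83.

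Matrix genes went both ways. HAS2 rose from 4.77, 4.11 and 4.90 CPM to 28.5, 23.9 and 26.4, against day 6 vehicles at 25.4, 29.1, 31.1 and 27.7 (log2 2.24, SE 0.17, adjusted p = 1.48e-13). With it rose the hyaluronan receptor CD44 (1.26), the other synthase HAS3 (1.12) and the hyaluronan-binding proteoglycan VCAN (0.71), so that 4 of 11 hyaluronan genes (36.4%) rose and none fell. Of 29 genes of the extracellular matrix 7 fell and 4 rose (37.9% called). Those that fell were structural: the collagens COL5A1 (−0.87), COL5A2 (−0.47), COL8A1 (−0.62) and COL12A1 (−0.64), the fibrillins FBN1 (−0.88) and FBN2 (−0.77), and FBLN1 (−0.73). Those that rose were VCAN, the adhesion modulators THBS2 (0.82) and TNC (1.00), and the protease inhibitor TIMP3 (0.85). COL5A1 went from 159, 150 and 179 CPM to 65.4, 72.1 and 59.2, against 66.5, 61.0, 42.7 and 58.3 in the day 6 vehicles, in which it also fell between the days (−0.44, adjusted p = 3.4e-06). Of 16 basement membrane genes 4 rose, among them the laminin chains LAMB1 (0.28) and LAMB3 (1.23), and 4 fell, among them LAMB2 (−0.75) and NID2. The latent TGF-beta binding proteins LTBP1 (−0.99) and LTBP2 (−0.88) fell, and TGFBI, a secreted protein named for its induction by TGF-beta, rose from 40.8, 43.2 and 44.1 CPM to 114, 131 and 92.0 (log2 1.96, SE 0.12, adjusted p = 7.34e-16). TGFBI did not reach the 138 to 165 CPM of the day 3 vehicles, but these had themselves fallen to 101, 97.4, 96.3 and 123 CPM by day 6 (−0.56, adjusted p = 2.2e-06). In the list of TGF-beta, activin and BMP feedback 5 of 29 rose and 5 fell.

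All 10 tested pregnancy-specific glycoproteins, secreted immunoglobulin-like proteins best known from the placenta, rose in the washout change (median 1.60), after all 10 had been lower on day 3 (median −1.94). PSG1 was at 7.10, 6.51 and 10.3 CPM on day 3 with hormone, against 29.6 to 61.2 (median 46.9), and at 36.6, 28.1 and 37.6 CPM on day 6, against 51.1, 60.2, 75.6 and 55.0. The hormone libraries were below every vehicle library of the same day on both days. The washout change of PSG1 was 1.74 (SE 0.20, adjusted p = 1.73e-07). These genes lie side by side on chromosome 19 and are near-identical, so their reads may be split among them and the 10 are not separate measurements. With the replicate block, or against the vehicle of the same dose alone, 6 of the 10 passed.

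Of 32 genes of ribosome biogenesis, many of them targets of MYC, 14 rose (43.8%) and none fell (median 0.375, against 0.019 over all genes), after 24 had been lower and none higher on day 3 (median −0.314). NOP16, a nucleolar protein, went from 9.61, 9.84 and 9.32 CPM to 17.3, 17.1 and 19, at or above vehicles of 13.6, 14.7, 16.8 and 17 (log2 0.90, SE 0.14, adjusted p = 1.01e-05), and ODC1, the first enzyme of polyamine synthesis, rose by 0.79 (SE 0.10, adjusted p = 7.42e-08). Of 41 cytosolic ribosomal protein genes 8 rose (19.5%) and none fell (median 0.272), after 37 had been lower on day 3. This count was 4 without the libraries over 75% ribosomal and 1 to 15 as single libraries were left out, and these genes have many processed copies that can take their reads. Among 21 heat shock genes 7 rose and the small chaperone CRYAB fell (−0.93; 38.1% called), and 3 rose without the libraries over 75% ribosomal. In cholesterol synthesis and uptake 6 of 24 genes (25.0%) fell and none rose, among them SREBF2 (−0.49), a transcription factor that drives cholesterol synthesis. Without the libraries over 75% ribosomal none of the 24 passed.

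**Figure D3:**
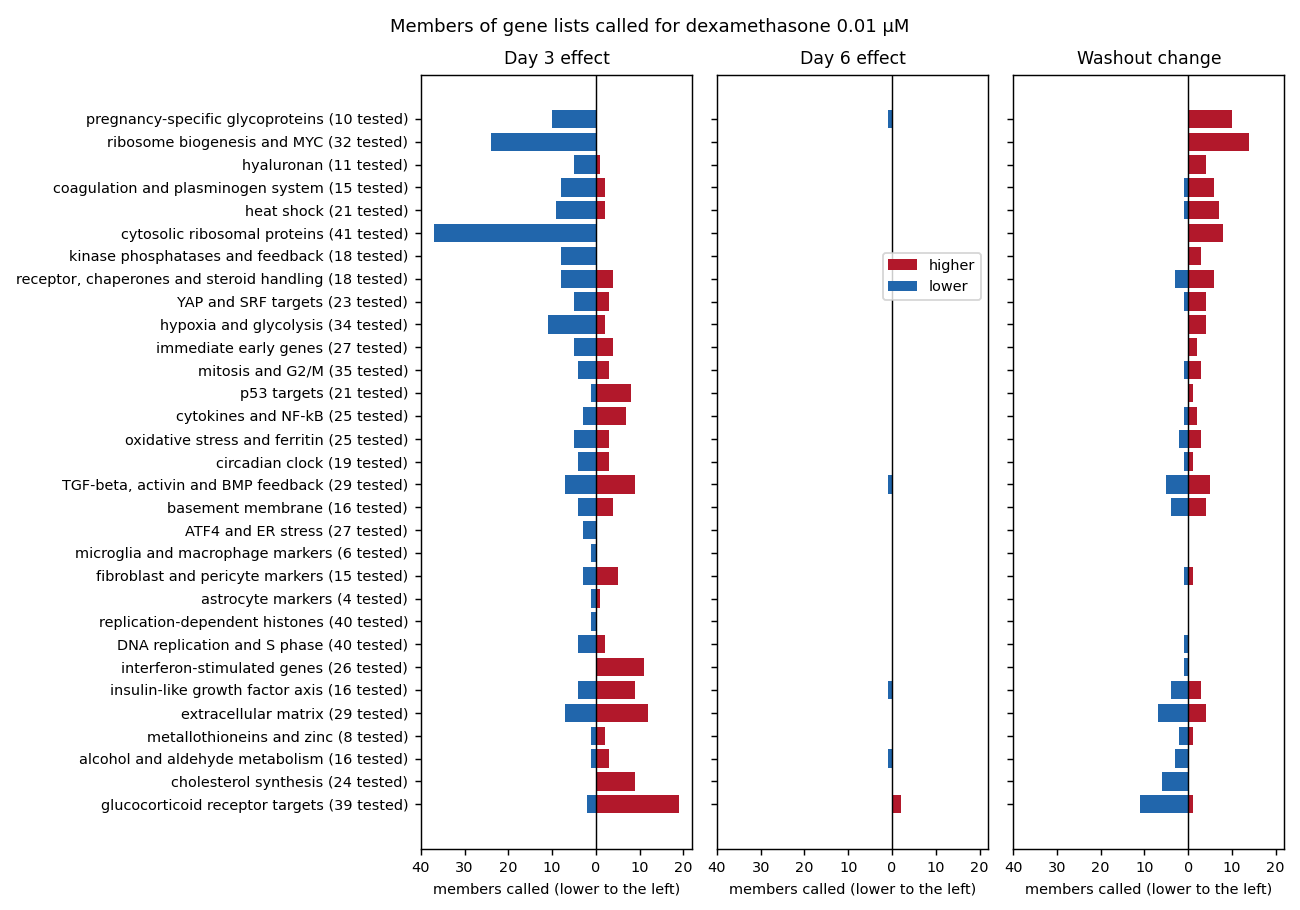
Number of members of each gene list called higher (red, to the right) or lower (blue, to the left) for dexamethasone 0.01 µM in the day 3 effect, the day 6 effect and the washout change, with the number tested beside each name. All 10 pregnancy-specific glycoproteins lie to the left on day 3 and to the right in the washout change, and the day 6 panel holds at most 2 members a list. The 3 panels share libraries.

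At 14 genes the hormone flasks differed from the vehicles on day 6. For 4 of them, DHRS2 (log2 −0.06, adjusted p = 0.883), ALDH6A1 (0.18, adjusted p = 0.167), ABCG2 (−0.17, adjusted p = 0.735) and ZC3H11A (0.48, adjusted p = 0.462), the day 3 effect had not passed. IGFBP5, a binding protein of insulin-like growth factors, was at 3.38, 2.24 and 4.41 CPM on day 3 against 14.4 to 23.6 (median 18.9), and at 14.6, 11.3 and 11.2 CPM on day 6 against 30.6, 29, 23.8 and 25.2. It stayed below every vehicle library of the same day, 2.18-fold on day 6 (log2 −1.12, adjusted p = 0.00318), although it rose in the washout change (1.41, SE 0.23, adjusted p = 7.37e-05). Likewise the matrix protein ABI3BP was at 8.89, 7.06 and 9.13 CPM against 15.7, 18.3, 14.4 and 11.7 (log2 −0.82, adjusted p = 0.00974), and INHBA, a subunit of activin, at 25.5, 24.4 and 20.5 CPM against 29.5, 38.3, 31.4 and 33.2 (−0.49, adjusted p = 0.0194). PSG1 (−0.81, adjusted p = 0.0194), the stress-regulated NIBAN1 (−0.43) and the mitochondrial dehydrogenase ALDH6A1 (−0.50) were the others that were lower.

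Among the genes higher on day 6, CRISPLD2, a secreted protein known to rise with glucocorticoids, was at 8.74, 14.3 and 10.7 CPM on day 6 against 5.74, 4.53, 7.10 and 8.71 (log2 0.83, adjusted p = 0.0194), after 52.5, 58.9 and 59.8 CPM on day 3. ADPRHL1, an ADP-ribosylhydrolase-like protein of muscle, was at 1.48, 1.87 and 1.69 CPM against 1.42, 0.324, 0.456 and 0.713 (1.42, adjusted p = 0.0194). TXNIP, which binds thioredoxin and limits glucose uptake, was at 50.4, 62.8 and 33.0 CPM against 15.1, 11.3, 24.5 and 23.4 (1.46, adjusted p = 0.0306). NPTX1, a neuronal pentraxin, was at 34.8, 40.3 and 27.4 CPM against 21.7, 18.4, 23.4 and 26.9 (0.61, adjusted p = 0.00219), and the dehydrogenase DHRS2 at 3.77, 4.40 and 3.89 CPM against 2.04, 1.62, 2.09 and 2.24 (1.02, adjusted p = 0.0454). The groups did not overlap at any of these 5 genes. The other 3, ABCG2, ZC3H11A and ENSG00000279369, overlapped the vehicles or were of low level.

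At TXNIP, NPTX1 and NIBAN1 the effect had passed on both days and the washout change did not pass. TXNIP was at 73.3, 78.1 and 47.1 CPM on day 3 with hormone against 15.5 to 53.6 (median 25.9), with a washout change of 0.27 (SE 0.37, adjusted p = 0.757), and NPTX1 at 52.8, 52.1 and 56.9 CPM against 31.7 to 41.1 (median 36), with one of 0.03 (SE 0.13, adjusted p = 0.939). For NIBAN1 it was −0.13 (adjusted p = 0.569). NPTX1 fell between the days in the vehicles (log2 −0.69, adjusted p = 3.42e-07) and in the hormone flasks (−0.66, adjusted p = 7.08e-06) alike. For TXNIP these differences were −0.72 and −0.44, and neither passed (adjusted p = 0.169 and 0.371). In other genes the vehicles also moved away from the hormone flasks, by −0.54 for CRISPLD2 (adjusted p = 0.026), and for IGFBP5 by 0.51, which did not pass (adjusted p = 0.051). At IGFBP5 the day 6 hormone library at 14.6 CPM just passed the lowest day 3 vehicle, at 14.4, and those at 11.3 and 11.2 stayed below it. The day 6 hormone libraries of CRISPLD2 overlapped the day 3 vehicles at 5.94 to 12.5 CPM.

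The day 6 list rests on few libraries. Without dexamethasone day 6 replicate 2 no gene passed edgeR's test (835 at an unadjusted p under 0.05, against 1193 with all libraries), without the day 6 vehicle of dexamethasone 1 µM 1 passed (898 unadjusted), without that of dexamethasone 0.01 µM 9, and without that of hydrocortisone 10 µM 23. DESeq2 also called 14, of which 10 were shared. Of the 19 alternatives run for them, IGFBP5 passed in 18, NPTX1 in 16, ABI3BP in 15, PSG1 in 13, NIBAN1 and INHBA in 12, and TXNIP, ADPRHL1 and DHRS2 in 9.

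**Figure D4:**
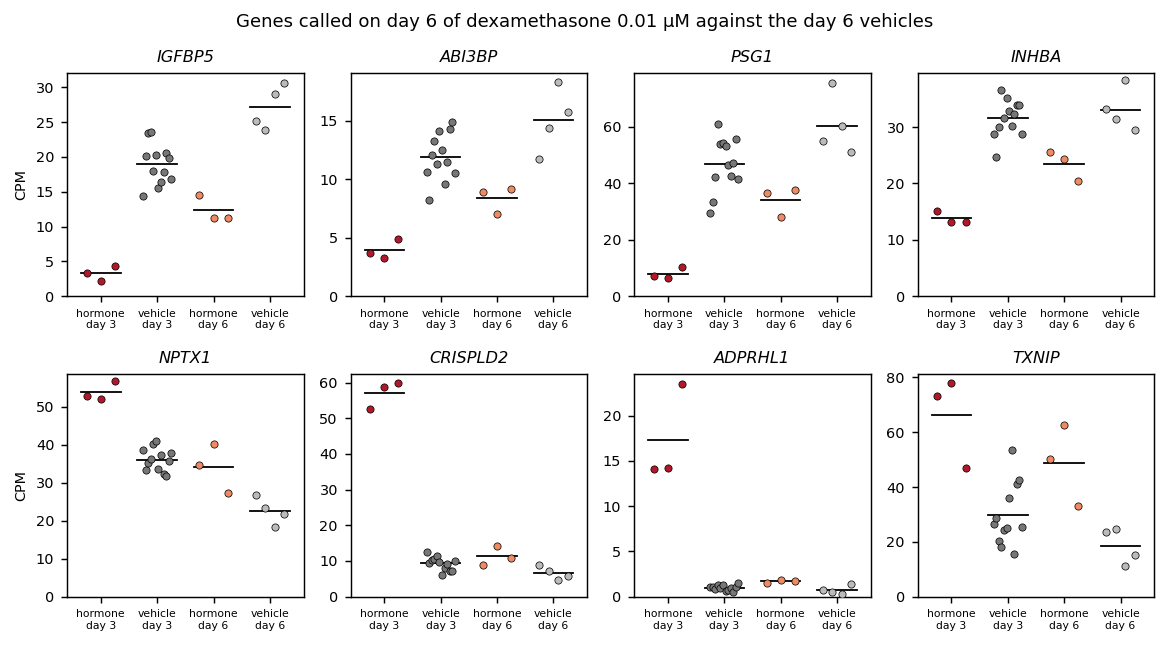
Level in CPM (vertical axis, from 0) in each library of dexamethasone 0.01 µM (hormone) and of the vehicles on days 3 and 6, for 8 of the 14 genes called on day 6; points are libraries and bars group means. The day 6 hormone points of IGFBP5 (11.2 to 14.6 CPM) lie below the day 6 vehicles (23.8 to 30.6), and those of NPTX1 (27.4 to 40.3) above them (18.4 to 26.9).

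A further gene set was taken from libraries that the washout change does not use. These were hydrocortisone 10 µM and untreated medium on day 3. The hydrocortisone flasks also held ethanol and the medium flasks did not, so hormone and ethanol cannot be told apart in the set. In it 301 genes were at least 2-fold higher and 260 at least 2-fold lower with hydrocortisone. Over the 301, the median effect of dexamethasone 0.01 µM was 0.909 on day 3 and 0.262 on day 6, and over the 260 it was −1.23 and −0.161. These stand against 0.00758 and 0.0129 over all genes. Of the 301, 87 fell and none rose in the washout change, and of the 260, 152 rose and none fell, beside 2.54% and 4.01% of all genes. On day 6, 3 of the 301 were called higher and 233 had an effect above 0, and 4 of the 260 were called lower and 73 were above 0, where 8979 of all 16816 genes were above 0. The 95% interval of the day 6 effect lay within 2-fold of no change for 169 of the 301 and 185 of the 260. It did so for 12983 of all 16816 genes tested, a larger share than in either set.

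The same sets were also described library by library. The median over the 301 genes, each as its log2 CPM minus the mean of the day's vehicle groups, was 0.828, 0.866 and 0.943 in the 3 day 3 hormone libraries and −0.147 to 0.188 in the vehicles, and 0.204, 0.237 and 0.124 in the 3 of day 6 against −0.033 to 0.054 in the 4 vehicles. Over the 260 genes it was −1.11, −1.17 and −1.22 against −0.162 to 0.122 on day 3, and −0.18, −0.175 and −0.156 against −0.032 to 0.042 on day 6. The day 6 hormone libraries did not overlap the vehicles of their day in either set, though replicate 3 lay within the range of the day 3 vehicles in both. The 4 day 6 vehicles themselves form the mean that was subtracted, which draws their medians together. The gap on day 6 is therefore a description and not a test. In the vehicles themselves the median day 6 to day 3 change was −0.176 over the 301 genes and 0.107 over the 260, against −0.0104 over all genes. The part of this drift in the day 6 effects was not tested.

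After dexamethasone at 1 µM, F3 was lower and CRISPLD2 and PER1 were higher on day 6 than after 0.01 µM. Of the 39 receptor targets tested, 3 differed between the doses in their washout change, CRISPLD2, PER1 and SLC7A2, all with a lower value at 0.01 µM. The day 6 effect passed at 1708 genes (10.2%) after 1 µM, 862 higher (5.13%) and 846 lower (5.03%), against 14 after 0.01 µM, and the washout change at 283 (1.68%), 187 higher (1.11%) and 96 lower (0.571%), against 1101. These counts share the vehicle libraries. The difference between the washout changes, in which the vehicles cancel, passed at 68 genes (0.404%), 37 with a higher (0.220%) and 31 with a lower (0.184%) value at 0.01 µM, with a median interval half-width of 0.344. CRISPLD2 went from 67.8, 76.1 and 94.1 CPM to 47.0, 50.1 and 51.2 after 1 µM, where after 0.01 µM it was at 8.74 to 14.3, and the washout changes differed by −1.66 (SE 0.23, adjusted p = 0.000162). CHST2, a carbohydrate sulfotransferase, went from 5.96, 6.77 and 6.69 CPM to 9.67, 9.22 and 8.69 after 1 µM and from 6.87, 6.61 and 2.94 to 2.84, 2.67 and 2.54 after 0.01 µM (difference −1.56, SE 0.32, adjusted p = 0.00698). The lipid kinase DGKI was likewise at 3.20, 4.62 and 4.82 CPM and then at 6.88, 6.79 and 6.75 after 1 µM, and at 5.94, 5.78 and 5.39 and then 3.70, 2.60 and 3.13 after 0.01 µM (−1.55, SE 0.27, adjusted p = 0.00178). After 1 µM the 3 day 6 libraries of CHST2 and DGKI all lay above those of day 3, though neither gene's washout change passed at that dose (adjusted p = 0.587 and 0.753). ADPRHL1 (−2.06, adjusted p = 0.0057) and PER1 (−1.29, adjusted p = 0.0475) differed in the same direction.

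On the repressed side, F3 recovered from 5.60, 6.22 and 5.04 CPM to 14.3, 16.2 and 21.8 after 1 µM, well short of the 51.6 to 58.4 CPM after 0.01 µM (difference 1.19, SE 0.21, adjusted p = 0.00289). FST, the activin antagonist follistatin, was at 2.22, 2.06 and 2.30 and then 5.54, 5.37 and 5.30 CPM after 1 µM, and at 2.62, 1.98 and 4.90 and then 18, 19.5 and 16.4 after 0.01 µM (1.27, SE 0.30, adjusted p = 0.0494). EVA1A (1.30, adjusted p = 0.000862) and SPSB1, an adaptor of a ubiquitin ligase (1.28, adjusted p = 0.0121), also differed. For TSC22D3 the washout changes of −2.72 and −1.36 did not differ past the threshold (−1.36, 95% interval −2.06 to −0.65, adjusted p = 0.0912), nor did those of NID2 (−0.70, 95% interval −1.10 to −0.31, adjusted p = 0.122).

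**Figure D5:**
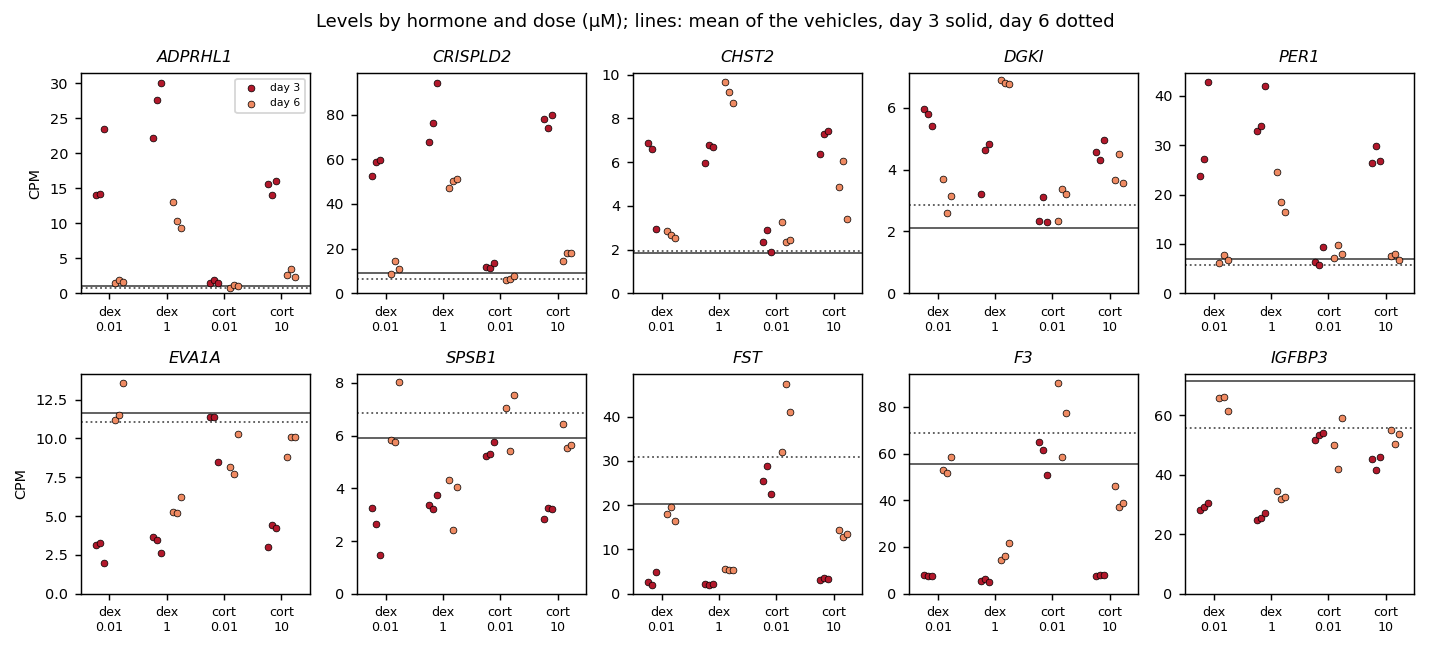
Level in CPM (vertical axis, from 0) on day 3 (red) and day 6 (orange) by hormone and dose in µM (dex, dexamethasone; cort, hydrocortisone) for 10 genes; each point is 1 library, and lines are the vehicle means of day 3 (solid) and day 6 (dotted). F3 stands at 51.6 to 58.4 CPM on day 6 after dexamethasone 0.01 µM and at 14.3 to 21.8 after 1 µM.

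At the same dose of 0.01 µM, 1 pair of compounds can be compared. Dexamethasone carries a fluorine, a methyl group and a further double bond that hydrocortisone lacks. Hydrocortisone at this dose differed from the vehicles at 3 genes on day 3 (0.0178%), IGFBP3 lower and FAM167A and DKK1 higher, at 15 on day 6, all higher (0.0892%), and had a washout change at 1 gene (0.00595%), SERPINE2 (0.74). The washout changes of the 2 compounds differed at 1163 genes (6.92%), 650 higher (3.87%) and 513 lower (3.05%) for dexamethasone, with no vehicle library in the test. ABCA8 was at 15.1, 16.6 and 13.8 CPM on day 3 and at 15.7, 14.2 and 11.2 on day 6 of hydrocortisone, against the fall from 63.7 to 85.5 down to 12.8 to 14.1 of dexamethasone (difference −2.40, SE 0.17, adjusted p = 1.06e-13). TSC22D3 was at 4.18, 3.55 and 3.93 and then 1.45, 4.23 and 3.74 CPM (−2.84, SE 0.35, adjusted p = 2.76e-06), and F3 at 64.8, 61.5 and 50.8 and then 90.0, 58.6 and 77.5 CPM (2.47, SE 0.21, adjusted p = 1.14e-09). CPA4, a secreted carboxypeptidase, was at 90.7, 93.5 and 96.0 and then 68.7, 46.6 and 88.4 CPM with hydrocortisone, and at 22.8, 22.3 and 33.3 and then 82.8, 126 and 93.4 with dexamethasone (2.41, SE 0.25, adjusted p = 1.41e-07). On day 6 some hydrocortisone libraries lay outside the range of the vehicles, at 90.0 CPM for F3, 46.6 for CPA4 and 1.45 for TSC22D3. The values of F3 and TSC22D3 come from replicate 2, in which 76.8% of the counts lay in ribosomal RNA genes.

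Hydrocortisone at 10 µM, a far higher dose, gives values that can only be set beside those of dexamethasone 0.01 µM. Its washout change passed at 1172 genes (6.97%), 725 higher (4.31%) and 447 lower (2.66%), and its day 6 effect at 150 (0.892%), 71 higher (0.422%) and 79 lower (0.470%). For ABCA8 the washout changes were −2.34 and −2.73, for TSC22D3 −2.74 and −2.72, for F3 2.05 and 2.50 and for HAS2 2.20 and 2.24, hydrocortisone first. The direct test of the difference, with a median interval half-width of 0.344, passed at 2 genes (0.0119%), IGFBP3 and MDM2, and at 930 by an unadjusted p under 0.05. IGFBP3, the main carrier of insulin-like growth factors, was at 45.4, 41.5 and 45.9 CPM and then 55.1, 50.4 and 53.6 with hydrocortisone 10 µM, and at 28.2, 29.3 and 30.4 and then 65.9, 66.3 and 61.5 with dexamethasone 0.01 µM, where the vehicles were at 53.1 to 102 (median 63.8) on day 3 and at 50.3, 48.0, 54.5 and 70.8 on day 6 (difference 0.88, SE 0.11, adjusted p = 5.64e-06). The day 6 level after dexamethasone thus lay within the vehicle range. MDM2, the ubiquitin ligase that restrains p53, was at 169, 204 and 210 and then 87.8, 91.5 and 95.2 CPM with hydrocortisone, and at 120, 117 and 131 and then 89.6, 107 and 101 with dexamethasone (0.78, SE 0.13, adjusted p = 0.00195). An unpassed test at the other genes does not show that the 2 treatments receded alike.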

How the data were processed

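The authors' deposited table holds whole read counts per Ensembl gene for 43 libraries of total RNA (stranded kit, paired ends, per the labels' protocols). FastQC, STAR, Subread with featureCounts, and GRCh38 are listed per the submitters' processing notes. For their versions and the strand setting, nothing was given in the sources used here, so reads of overlapping or antisense genes cannot be told apart. Groups follow the treatment labels. Counts were scaled by TMM, genes kept by filterByExpr (minimum count 10, minimum total 15), and 17 groups fitted in 1 model over 43 libraries (26 residual degrees of freedom) with edgeR 4.0.16 in R 4.3.3 (robust quasi-likelihood, limma 3.58.1). DESeq2 1.42.0 was 1 alternative. Standard errors come from the F statistic. Replicates are separate flasks of 1 line, so p-values measure the spread between flasks within the groups that held more than 1 library. The 4 day 6 vehicle groups held 1 library each, so their own spread was not measured and was taken from the other groups. Differences among the vehicle groups do not enter the error.

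The members, the 35 gene lists and the rule for named genes were chosen with earlier results of these data known. That rule took the 12 largest rises and falls of the washout change and up to 8 per direction of the day 6 effect (past the threshold, mean log2 CPM of at least 1, libraries not overlapping), the 5 largest per direction of each difference between hormones or doses, up to 3 called members per list by smallest p, and always FKBP5, TSC22D3, PER1, KLF9, DUSP1, NR3C1 and ZBTB16 (not tested). 1 keratin pseudogene and some other genes it named are not reported here, and other genes were named after their values were seen. In simulated counts over 16616 genes the washout test recovered 52% of changes of 1.5-fold, 82% of 2-fold and 100% of 4-fold, with 13 false calls. Symbols are current for 19978 of 20052 genes and from GENCODE v29 for 70, and positions are those of GENCODE v29.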

Additional observations from a re-analysis of the deposited data

Results flagged for a closer look

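The effect of dexamethasone 0.01 µM differed between day 3 and day 6, by a test of the difference itself, at 1101 genes. Its washout change differed from that of dexamethasone 1 µM at 68 genes, from that of hydrocortisone 0.01 µM at 1163 and from that of hydrocortisone 10 µM at 2, each by a test in the same fit.

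Against dexamethasone 1 µM the values with the largest differences, apart from 1 keratin pseudogene that is not reported, as log2 at 0.01 µM minus 1 µM, were −2.06 for ADPRHL1, −1.66 for CRISPLD2, −1.56 for CHST2, −1.55 for DGKI and −1.29 for PER1, and 1.30 for EVA1A, 1.28 for SPSB1, 1.27 for FST and 1.19 for F3. Against hydrocortisone 0.01 µM they were −2.84 for TSC22D3, −2.64 for NID2, −2.61 for ADPRHL1, −2.40 for ABCA8 and −2.37 for PER1, and 2.90 for KRTAP2-3, 2.47 for F3, 2.41 for CPA4, 2.41 for SPOCD1 and 2.39 for SNORD3C. Against hydrocortisone 10 µM they were 0.879 for IGFBP3 and 0.775 for MDM2. No group of the comparison held 4 to 10 libraries, so single libraries that stand apart within a group were not looked for by a formal rule.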

How the results depend on the processing

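The sign of the washout change was kept at 1098 to 1101 of the 1101 called genes in all 20 alternatives, and its count lay between 647 and 1207. Against the vehicle of the same dose alone 647 genes were called (365 higher, 282 lower), the day 3 effect at 2353, the day 6 effect at 7, the vehicle change at 1, and the median washout change of the hydrocortisone-induced set was −0.841. In a fit of the 22 libraries the counts were 693 (439 higher, 254 lower), 2 on day 6 and 13 for the vehicles, and with 1 pooled vehicle group a day 3 on day 6 and 42 for the vehicles. Without the libraries over 75% ribosomal the vehicle change passed at 37. As single libraries were left out, the washout change was called at 775 to 1207 genes, the day 6 effect at 0 to 23 and the vehicle change at 17 to 128. Among named genes the washout changes of TXNIP (−0.111 with the replicate block, −0.145 without the libraries over 75% ribosomal) and NPTX1 (−0.0014 without those libraries, −0.107 without dexamethasone day 6 replicate 2, −0.0647 without the day 6 vehicle of dexamethasone 1 µM) turned sign, and neither had passed. Leaving out single libraries gave −0.107 to 0.165 for NPTX1. The cause was not tested. With edgeR's older form of the test, chosen after seeing the data, 893 were called.

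Replicate numbers are shared by some day 3 and day 6 libraries, but the labels do not say that a number marks a flask. Deviations of same-numbered dexamethasone libraries correlated at 0.163, −0.0482 and 0.209 and those of vehicles at −0.134 to 0.298, and day 6 replicate 1 was nearest to day 3 replicate 2 (0.338), so the numbers were not taken to pair. With a replicate block 1032 genes were called, 752 of them shared. Low counts limit the test: without ribosomal RNA the shallowest library held 1083399 counts.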

Other observations

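The shares called in the washout change below stand against 6.55% of all genes. Of 26 interferon-stimulated genes, which answer viral RNA, 11 were higher on day 3 and none lower, and in the washout change 1 fell (3.85%), STAT2 (−0.51), with a median of −0.411 over the list. Of 21 targets of p53, 8 were higher and 1 lower on day 3, while in the washout change 1 rose (4.76%), AEN (0.46), and none fell, and the list's median effect was 0.197 on day 3 and 0.165 on day 6. Of 25 cytokine and NF-kB genes 2 rose, IL11 and IL1B, and NFKBIA fell (12% called). IL1B, an inflammatory cytokine, was at 0 counts in all 3 day 3 hormone libraries, at 0 to 0.534 CPM in the vehicles of that day and at 0.123, 0.144 and 0.254 CPM on day 6, so no fold is given. In the insulin-like growth factor axis 3 of 16 rose (IGFBP3, IGFBP5 and STC1) and 4 fell, among them IGFBP7 (−0.85) and the receptor IGF2R (−0.50).

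Of 40 S phase genes GINS1 fell (−0.38) and none rose (2.50%), of 35 mitosis genes 3 rose and 1 fell (11.4%), and of 40 replication-dependent histone genes none was called. None of 27 genes of ATF4 and ER stress and none of 13 mitochondrially encoded genes passed either. Of 34 hypoxia and glycolysis genes 4 rose (11.8%), with HK2 at 0.44, of 25 oxidative stress genes 3 rose and 2 fell, the ferritin chains FTL (0.54) and FTH1 (−0.68) in opposite directions, and of 23 YAP and SRF targets 4 rose and 1 fell. Of 19 clock genes PER1 fell and CRY1 rose (0.34; 10.5% called), and CRY1 lost the call in 15 of the 20 alternatives. The metallothioneins MT2A (−0.57) and MT1E (−0.70) fell, and of 16 alcohol and aldehyde genes 3 fell, ALDH1L2 (−0.96) among them. None of 6 tested microglia, 4 astrocyte, 3 neuron, 3 oligodendrocyte and 3 endothelial markers was called, and of 15 fibroblast markers VIM rose (0.31) and PDGFRB fell (−0.46).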
